A study of Homo sapiens with 2 samples.

Results

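The genes described here are the protein-coding genes of the proteasome family, with symbols starting PSMA to PSMG, and the ubiquitin-conjugating enzyme (UBE) genes, with symbols starting UBE and a digit. They number 91 (50 PSM and 41 UBE) of 19974 protein-coding RefSeq genes on chromosomes 1 to 22 and X. Their symbols chose them, without regard to peaks, but the set was proposed with results of this peak list known, so every count of peaks below is a description and carries no test. F36P is a human erythroleukaemia cell line. AM-ERG cells overexpressed the ETS transcription factor ERG with an AM tag from the retroviral vector MSCV-PIG, and Vector cells received MSCV-PIG alone. Both were kept in puromycin (1 µg/ml, 4 days), and an AM-tag antibody was used for the precipitation, with 1 library of each kind. The analysed measurement is 1 list of 1645 peaks, of which 1564 lay on chromosomes 1 to 22 and X. The sources used here do not say from which library it came or what control was used, so no value has a replicate error and AM-ERG could not be compared with Vector.

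The proteasome degrades proteins tagged with ubiquitin. Its 20S core is a barrel of alpha subunits (PSMA genes) and beta subunits (PSMB genes, some of them proteases), capped by the 19S regulatory particle. The ATPases of this particle (PSMC genes) unfold the substrate. Its non-ATPase subunits, encoded by most but not all PSMD genes, form the lid and much of the base. PSME genes encode other activators, PSMF1 an inhibitor and PSMG genes assembly chaperones. Ubiquitin passes from an E1 activating enzyme to an E2 conjugating enzyme, encoded by the UBE2 genes, and an E3 ligase directs it to the substrate. The groups below follow the symbols, which do not match the functions throughout. PSMC3IP encodes a recombination factor, PSME3IP1 encodes a protein that binds the PSME3 activator, and the 6 UBE3 and UBE4 genes are named for ligases. UBE2V1P16 carries a pseudogene-like symbol but is annotated as protein-coding.

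A peak was counted for a gene when its summit, the position of highest signal, lay in the gene or within 10 kb, and was called a gene-end peak when the summit lay within 1 kb of either end of the gene. By the wider measure 8 of the 50 PSM genes (16%) and 9 of the 41 UBE genes (22%) had a peak, beside 9.58% of all protein-coding genes. By the narrower one 7 PSM genes (14%) and 6 UBE genes (14.6%) had a peak, beside 5.86% of all. The 13 gene-end peaks were at PSMA8, PSMB1, PSMD2, PSMD7, PSMD12, PSMD13 and PSME4 and at UBE2B, UBE2E3, UBE2M, UBE2Q1, UBE3B and UBE4A. The wider measure added PSMC3IP, UBE2D2, UBE2D3 and UBE2V2, together with a second peak each at PSMD2 and UBE2M, which made 19 peaks. The other 74 genes had none. The UBE genes are longer (median 57.6 kb) than the PSM genes (13.6 kb) and than all protein-coding genes (24.2 kb), so that the wider measure covers more sequence for them.

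Promoter sequences are shown for the 6 genes whose summit fell inside a RefSeq promoter window (GRCh38.p14, 250 bases before to 50 after an annotated start). They hold the sequence at these summits, but all windows except that of UBE2D3 extend beyond the peak. In PSME4 the CCGGAA match nearest to the start lies outside the peak. PSMD12 is shown as well because it has the highest fold. PSMD12 was added after its values were seen, since its summit lay 132 bp past the start and so outside the window. Each runs 5′ to 3′ on the gene's strand. Capitals mark the 6-letter ETS motif CCGGAA on either strand (CCGGAA or TTCCGG), or, in UBE2D3, which has no such match, the 4-letter ETS core GGAA (or TTCC).

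PSMD12, chr17:67366528-67366827, minus strand: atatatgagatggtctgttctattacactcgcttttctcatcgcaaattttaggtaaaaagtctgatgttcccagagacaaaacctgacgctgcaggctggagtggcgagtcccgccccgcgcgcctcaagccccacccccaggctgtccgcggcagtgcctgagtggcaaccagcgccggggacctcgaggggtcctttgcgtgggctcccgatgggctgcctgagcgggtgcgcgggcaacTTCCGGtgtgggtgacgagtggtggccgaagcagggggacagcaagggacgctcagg
PSME4, chr2:53970944-53971243, minus strand: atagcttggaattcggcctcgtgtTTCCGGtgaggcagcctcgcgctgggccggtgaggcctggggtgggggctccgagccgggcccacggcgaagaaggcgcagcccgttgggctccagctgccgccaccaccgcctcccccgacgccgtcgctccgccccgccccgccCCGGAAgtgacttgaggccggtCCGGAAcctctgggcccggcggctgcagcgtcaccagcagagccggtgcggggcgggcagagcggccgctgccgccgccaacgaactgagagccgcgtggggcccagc
PSMA8, chr18:26133619-26133918, plus strand: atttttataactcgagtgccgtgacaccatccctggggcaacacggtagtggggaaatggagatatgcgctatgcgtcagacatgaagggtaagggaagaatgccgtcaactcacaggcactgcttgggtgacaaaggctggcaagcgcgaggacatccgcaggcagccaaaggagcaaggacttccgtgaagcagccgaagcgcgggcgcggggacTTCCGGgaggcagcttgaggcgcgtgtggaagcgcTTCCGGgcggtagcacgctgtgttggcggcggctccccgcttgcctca
UBE2E3, chr2:180980110-180980409, plus strand: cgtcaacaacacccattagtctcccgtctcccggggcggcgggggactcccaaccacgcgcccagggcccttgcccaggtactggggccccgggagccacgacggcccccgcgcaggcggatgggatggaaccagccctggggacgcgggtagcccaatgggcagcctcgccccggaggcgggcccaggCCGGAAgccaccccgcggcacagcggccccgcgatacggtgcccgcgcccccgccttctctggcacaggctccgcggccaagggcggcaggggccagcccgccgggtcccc
UBE3B, chr12:109477384-109477683, plus strand: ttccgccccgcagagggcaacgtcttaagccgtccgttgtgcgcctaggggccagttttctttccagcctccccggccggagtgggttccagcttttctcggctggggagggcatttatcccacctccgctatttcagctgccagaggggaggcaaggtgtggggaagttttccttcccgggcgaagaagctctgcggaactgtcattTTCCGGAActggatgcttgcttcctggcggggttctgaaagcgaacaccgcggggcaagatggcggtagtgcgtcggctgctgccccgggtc
UBE2D3, chr4:102827502-102827801, minus strand: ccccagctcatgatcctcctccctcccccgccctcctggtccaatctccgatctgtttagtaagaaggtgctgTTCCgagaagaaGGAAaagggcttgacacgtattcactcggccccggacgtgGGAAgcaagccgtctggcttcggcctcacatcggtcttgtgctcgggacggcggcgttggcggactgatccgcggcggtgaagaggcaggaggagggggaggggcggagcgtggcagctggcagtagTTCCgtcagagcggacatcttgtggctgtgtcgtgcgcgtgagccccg
UBE4A, chr11:118359350-118359649, plus strand: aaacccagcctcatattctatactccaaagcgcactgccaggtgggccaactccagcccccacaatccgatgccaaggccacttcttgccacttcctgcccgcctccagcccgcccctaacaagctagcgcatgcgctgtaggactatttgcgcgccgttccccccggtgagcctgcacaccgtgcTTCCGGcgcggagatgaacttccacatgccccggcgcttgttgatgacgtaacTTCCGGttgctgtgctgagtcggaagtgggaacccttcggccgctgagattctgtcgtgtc

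The PSM genes are described from the core outwards. In the alpha ring 1 of 8 genes had a peak, PSMA8, which encodes the testis-type alpha subunit that replaces PSMA7. Its peak, at chromosome 18, 26133730 to 26134078, had its summit 4 bp before the gene's start. The fold enrichment, the authors' ratio of signal to local background at the summit, was 6.16, and the pileup recovered from it was 17 fragments on a background of 1.92. Here and below the fold is the pileup plus 1 over the background plus 1, so it is smaller than the plain ratio of these values. Of the 1564 peaks 135, PSMA8 among them, had a background within 0.001 fragments of the lowest. The other alpha genes, PSMA1 to PSMA7, had no peak. Among the 11 beta genes 1 had a peak, PSMB1, which encodes a beta subunit without protease activity. Its summit lay 127 bp inside the gene's higher-coordinate end at chromosome 6, 170553076 to 170553349, with a fold of 5.24 (19 fragments). An end of TBP, which encodes the TATA-binding protein, was 1189 bp from that summit. PSMB2 to PSMB11 had none, including PSMB8, PSMB9 and PSMB10 of the immunoproteasome. For PSMB5, which encodes the chymotrypsin-like subunit, the nearest peak was 469 kb away. By both measures 12.5% of the alpha and 9.09% of the beta genes had a peak. Over all protein-coding genes the shares were 9.58% (wider measure) and 5.86% (gene end).

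**Figure D1:**
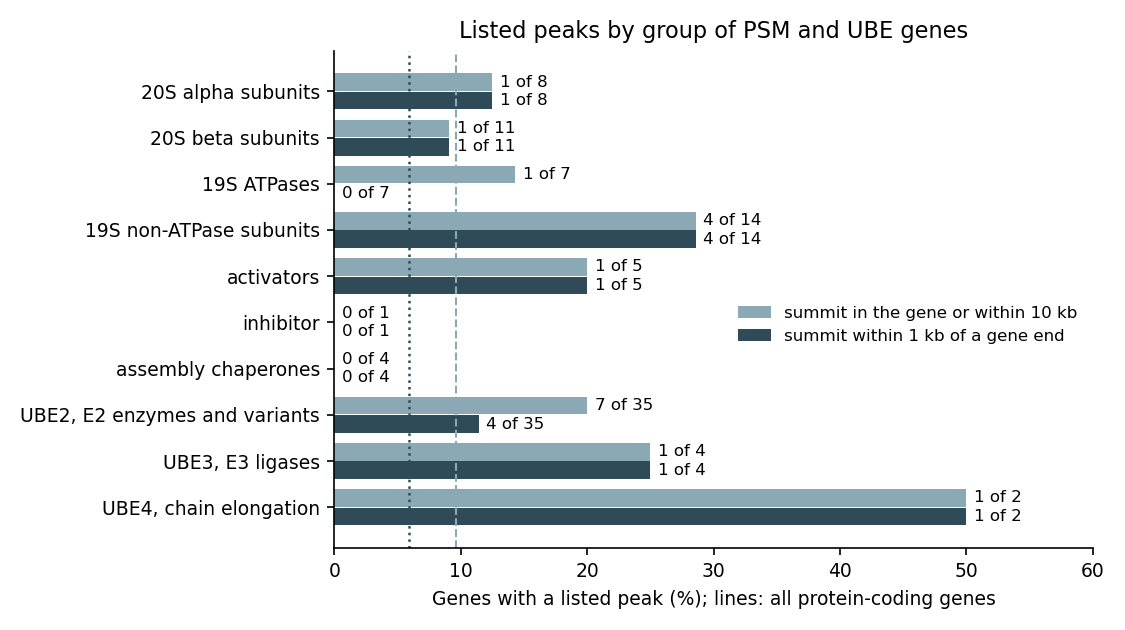
Bars give the percentage of genes in each group with a listed peak, for summits in the gene or within 10 kb (light) and within 1 kb of a gene end (dark), with the counts beside them. Lines mark 9.58% (dashed) and 5.86% (dotted) of all protein-coding genes, and the 19S non-ATPase group has 4 of 14 by both measures. Groups follow the gene symbols, so the 1 of 7 in the 19S ATPase group is PSMC3IP, and the activators include PSME3IP1.

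The 19S regulatory particle held the most PSM peaks. None of the 6 proteasome ATPase genes PSMC1 to PSMC6 had a peak. Of the 14 PSMD genes 4 (28.6%) had one by both measures, beside 9.58% (wider measure) and 5.86% (gene end) of all protein-coding genes. Both groups are small, and the difference between them was not tested. The strongest PSMD peak was at PSMD12, which encodes a lid subunit, at chromosome 17, 67366224 to 67366664. Its fold of 10.2 ranked 30 among the 1645 listed peaks, from a pileup of 38 fragments on a background of 2.82. PSMD7, which encodes the lid partner of the deubiquitinase PSMD14, had a fold of 5.94 at chromosome 16, 74296746 to 74297023, with a pileup of 22. PSMD13, also a lid gene, had a fold of 4.02 at chromosome 11, 236993 to 237347, and its peak was shared with SIRT3, a mitochondrial sirtuin gene whose end was 177 bp from the summit. PSMD2 encodes a base subunit that receives ubiquitin and its shuttle factors, and its peak at chromosome 3, 184299170 to 184299476, was the weakest of the PSM peaks at gene ends. It had a fold of 3.32, a pileup of 14 fragments and a q of 0.0152, beside the largest q of the list of 0.0474. All 4 summits lay 86 to 163 bp downstream of the annotated start.

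PSMD2 also had a peak of 3.52 fold that lay 6290 bp beyond its other end. That summit was inside EIF4G1, which encodes a translation initiation factor, and 734 bp from its end. The PSMD genes without a peak were PSMD1, PSMD3 to PSMD6, PSMD8 to PSMD11 and PSMD14. Of these PSMD4, which encodes a ubiquitin receptor, was the closest to one, at 14.2 kb (fold 6.28), and PSMD14 was 148 kb from the nearest.

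Among the activators PSME4, which encodes the large PA200 activator, had the second strongest PSM peak. It lay at chromosome 2, 53971059 to 53971483, with 8.15 fold (rank 98), from 29 fragments on a background of 2.68. The summit was 195 bp upstream of the PSME4 start and inside ACYP2, an acylphosphatase gene that has an end 75 bp away, so the peak cannot be given to 1 of them. PSME1, PSME2, PSME3, PSME3IP1, the inhibitor gene PSMF1 and the chaperone genes PSMG1 to PSMG4 had no peak. The peak counted for PSMC3IP was 5076 bp from it, within 1 kb of ends of MLX (134 bp) and COASY (957 bp), with a fold of 4.63. The 42 PSM genes without a peak were a median of 251 kb from the nearest one (14.2 to 7640 kb).

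Among the 35 UBE2 genes 7 (20%) had a peak and 4 (11.4%) had one at a gene end. Over all protein-coding genes these shares were 9.58% and 5.86%. UBE2E3, an E2 gene, had a fold of 6.75 at chromosome 2, 180980069 to 180980366, 73 bp upstream of its start and inside the noncoding gene UBE2E3-DT, 725 bp from the nearest end of the latter. UBE2B, a RAD6 homologue of DNA damage tolerance, had the same fold of 6.75 at chromosome 5, 134371177 to 134371463, 238 bp outside the gene and 293 bp from an end of CDKL3, a kinase gene. Both peaks had a pileup of 20 on a background of 2.11. UBE2Q1 had a fold of 6.51 at chromosome 1, 154559018 to 154559299, with its summit 439 bp outside the gene. With UBE2M, described next, the 4 E2 gene-end folds ran from 5.82 to 6.75, beside 3.32 to 10.2 at the PSM gene ends. E2 peaks away from the gene ends went down to 3.29.

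UBE2M encodes an E2 that attaches NEDD8 to cullins. Its gene-end peak at chromosome 19, 58554812 to 58555184, had a fold of 5.82, but it lay 718 bp past the end of the gene where transcription stops and 111 bp from an end of CHMP2A, a membrane remodelling gene. A second UBE2M peak of 3.62 fold lay 1202 bp upstream of its start, just outside the 1 kb limit, within 1 kb of the noncoding gene MZF1-AS1.

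The ligase genes UBE3B and UBE4A had 1 peak each. UBE3B, a HECT-type E3 gene, had a fold of 6.07 (26 fragments) at chromosome 12, 109477321 to 109477650, 155 bp upstream of its start and 179 bp from an end of KCTD10. UBE4A, a U-box gene that extends ubiquitin chains, had a fold of 4.82 (14 fragments) at chromosome 11, 118359366 to 118360053, 171 bp upstream of its start. UBE3A, UBE3C, UBE3D and UBE4B had none.

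At the other UBE genes with a peak the summit was farther from the ends. UBE2D3, one of the broadly acting E2 genes, had a fold of 6.02 at chromosome 4, 102827255 to 102827829, in the gene's interior, 33361 bp from the nearest end. RefSeq lists several starts for UBE2D3, and the summit was 193 bp upstream of one of them and 311 bp from the antisense gene UBE2D3-AS1. By distance to a listed start it therefore resembled the gene-end peaks. UBE2D2 had a fold of 6.16 at chromosome 5, 139637628 to 139637977, which lay 9395 bp beyond the gene, just inside the 10 kb limit, and 9470 bp from CXXC5. UBE2V2 encodes an inactive E2 variant that partners UBE2N. Its peak at chromosome 8, 48008467 to 48008855, lay inside the gene 11030 bp from an end, and with a fold of 3.29, a pileup of 13 and a q of 0.0237 it was the weakest of the 19.

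The remaining 32 UBE genes had no peak and were a median of 299 kb from one (13.8 to 7590 kb). They included the 4 ligase genes above. UBE2S, an E2 of the anaphase-promoting complex, lay just outside the limit at 13.8 kb. The nearest peak was 155 kb from UBE2C, its partner E2, 7590 kb from UBE2D1, 236 kb from UBE2N and 246 kb from UBE2F, the other E2 gene of NEDD8.

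**Figure D2:**
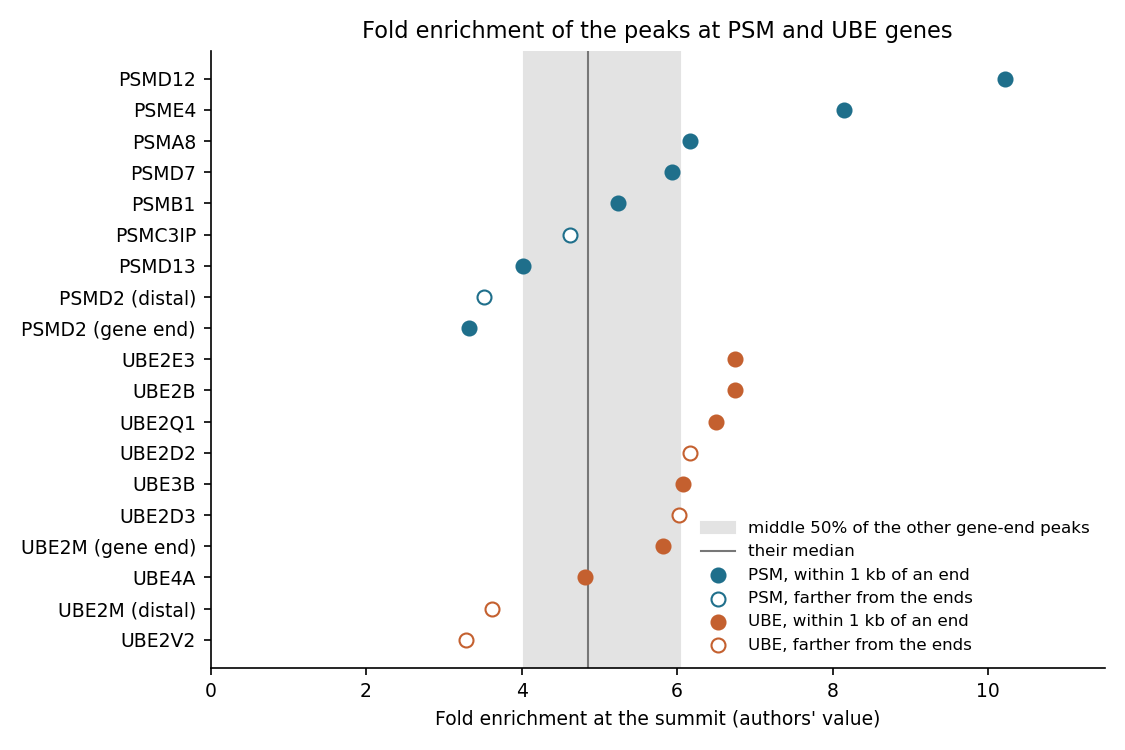
Each point is 1 peak, placed by the authors' fold enrichment, with filled points within 1 kb of a gene end and open points farther away; the band and line are the middle 50% (4.03 to 6.04) and median (4.85) of the 953 other gene-end peaks. PSMD12 at 10.2 and PSME4 at 8.15 stand above the rest, and the UBE gene-end peaks lie between 4.82 and 6.75.

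The peaks were then compared in strength with other gene-end peaks. The 7 PSM gene-end peaks had a median fold of 5.94 (3.32 to 10.2) and the 6 UBE peaks one of 6.29 (4.82 to 6.75), beside 4.85 (2.03 to 15.7) at the 953 other peaks within 1 kb of a protein-coding gene end. Of the PSM peaks 5 and of the UBE peaks 5 were above 4.85. Fold depends on the local background, and the pileups were alike, with a median of 20 fragments in both families and 21 at the other gene ends. The median background was 2.82 fragments at PSM, 2.11 at UBE and 3.45 at the other gene-end peaks. The part that background played in the fold was not tested.

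**Figure D3:**
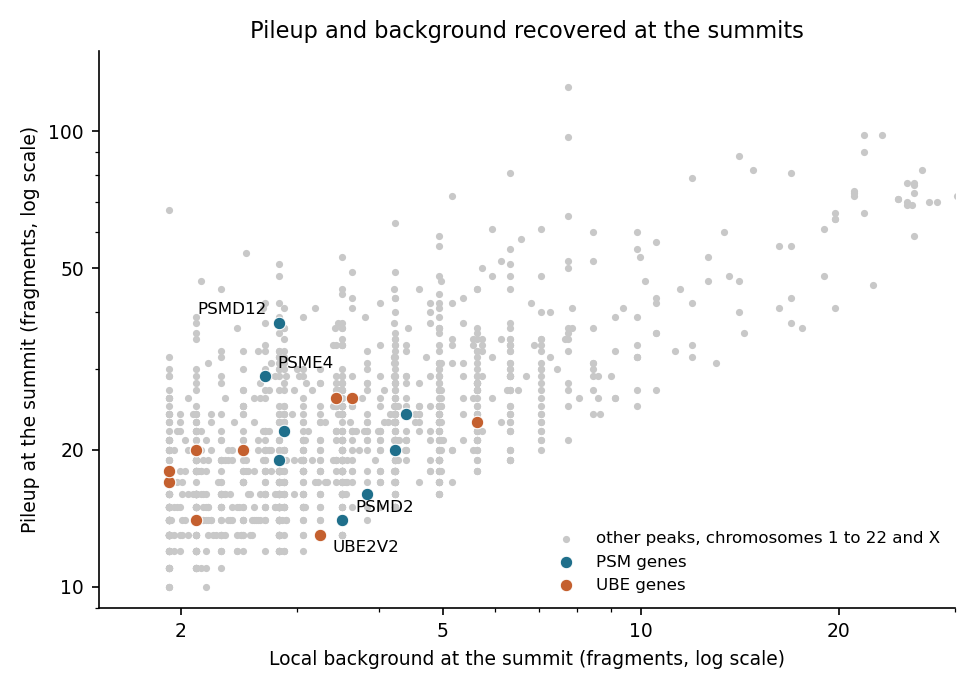
Each point is 1 peak, by the local background (horizontal) and the pileup (vertical) at its summit in fragments, both on log axes; coloured points are the PSM and UBE peaks, grey ones the other 1545 peaks, of which 85 lie beyond the axes. The coloured points sit at backgrounds of 1.92 to 5.63 fragments and pileups of 13 to 38.

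Some values were exactly equal. UBE2E3 and UBE2B shared 1 pair of pileup and background (20 and 2.11), and PSMA8 and UBE2D2 another (17 and 1.92). Pileups are whole fragments, so at about 20 fragments neighbouring peaks cannot be ranked finely.

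The summits were next placed relative to the gene end. Of the 7 PSM gene-end summits 5 were inside the gene, at PSMB1, PSMD2, PSMD7, PSMD12 and PSMD13, and the other two outside, at PSMA8 and PSME4. All 6 UBE summits were outside the gene. At the other protein-coding genes 717 of 1176 pairs of gene and gene-end summit (61%) had the summit inside. With 7 and 6 peaks, and 3 of the UBE peaks shared with a neighbouring gene, the families are described and not tested. The distance to the gene's own end was 4 to 195 bp (median 132) for PSM and 73 to 718 bp (median 204.5) for UBE. Where a strand was listed, 9 of 10 member summits were at the transcription start, UBE2M being the exception, beside 927 of 979 (94.7%) at other genes.

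**Figure D4:**
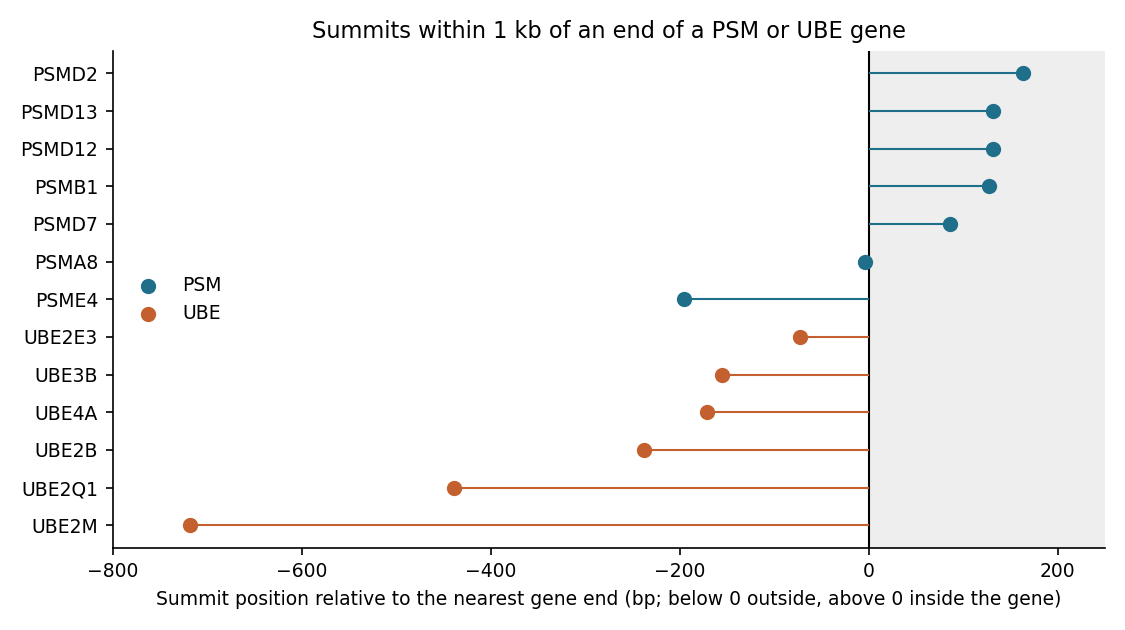
Points give the distance in bp of each of the 13 gene-end summits from the nearest end of its gene, negative outside and positive inside the gene (shaded). The UBE summits all lie outside, from 73 bp at UBE2E3 to 718 bp at UBE2M, and 5 PSM summits lie 86 to 163 bp inside.

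Several peaks were shared with neighbouring genes. Of the 13 gene-end peaks 5 (38.5%) were likewise at an end of another protein-coding gene (1 kb), beside 22.1% of the 953 others. The pairs were PSMD13 with SIRT3, PSME4 with ACYP2, UBE2B with CDKL3, UBE2M with CHMP2A and UBE3B with KCTD10. No other protein-coding gene had an end within 1 kb of the summits at PSMA8, PSMB1, PSMD2, PSMD7 and PSMD12, and UBE2E3, UBE2Q1 and UBE4A. CD3G, a T-cell receptor subunit gene, was 4268 bp from the UBE4A summit and TRIM28, a corepressor gene, 4279 bp from the UBE2M one.

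The promoters were searched for ETS letters, since ERG belongs to the ETS family, whose members bind GGAA. RefSeq promoters were listed for 78 of the 91 genes, and 1 window a gene was searched on both strands. The gene-end summits at PSMD2, PSMD7, PSMD12, PSMD13 and UBE2M lay outside the window searched. CCGGAA was found in all 6 listed promoters of PSM genes with a gene-end peak and in 3 of 4 such UBE promoters, UBE2M being the one without it. Among members without a gene-end peak it was in 14 of 38 PSM promoters (36.8%) and 5 of 30 UBE promoters (16.7%). Over all 15813 listed protein-coding promoters the share was 22.7%, and over the 973 of genes with a gene-end peak it was 52.5%. The longer CCGGAAGT, which contains CCGGAA, was in 5 of the 10 member promoters with a gene-end peak (PSMA8, PSMD12, PSMD13, PSME4 and UBE4A) and in 6 of the 68 without (8.82%), beside 6.17% of all and 21.3% of the 973 with a gene-end peak. The 4-letter core GGAA, contained in both, was in 95.2% of all promoters, and so separates little. Of the 374 listed protein-coding promoter windows that held a summit, 69.8% contained CCGGAA, as did 5 of the 6 member windows with a summit inside.

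In the sequences printed above, the match to CCGGAA nearest to the summit was centred 8.5 bp from it in PSMA8, 14.5 bp in UBE2E3 and 28.5 bp in PSME4. It was 110 bp away in UBE4A, 116 bp in UBE3B and 137 bp in PSMD12. In UBE3B the 2 matches overlap on opposite strands. UBE2D3 had only the 4-letter core, the nearest of 4 being 17.5 bp from the summit. A match is a description of the letters and does not show binding.

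**Figure D5:**
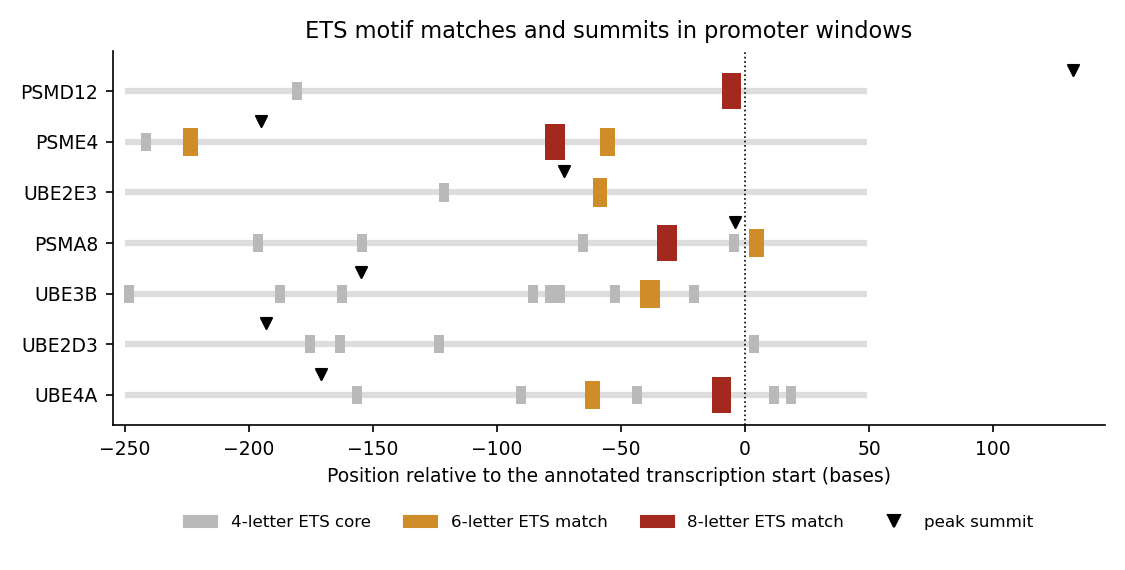
Grey lines are the 7 promoter windows printed above, from 250 bases before to 50 after the annotated start (dotted line at 0); coloured blocks are ETS matches of 4, 6 and 8 letters on either strand, and triangles are peak summits. PSMA8, UBE2E3 and PSME4 have a 6-letter match within 28.5 bp of the summit, and the PSMD12 summit lies 132 bp past the start, outside its window.

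Other genes of the pathway, from 10 lists chosen by function, had peaks at 19 of 97 (19.6%) and gene-end peaks at 12 (12.4%), beside 9.58% and 5.86% of all protein-coding genes. Of 10 E1 and related activating genes 3 had a peak, with gene-end peaks at UBA2 (3.88), the SUMO E1 subunit, and MOCS3 (5.73, shared with DPM1). The modifier genes NEDD8 (4.87, shared with GMPR2 and NEDD8-MDP1) and URM1 (4.98) had 1 each of the 11 searched.

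Of 8 E2 relatives outside the symbol rule 3 (37.5%) had a peak. BIRC6 had gene-end peaks of 8.02 and 2.87 fold, and TSG101 one of 7.25. Of 11 proteasome-bound factors 1 (9.09%, beside 9.58% of all protein-coding genes) had a peak, POMP, the maturation factor of the 20S core. Its fold was 7.19, at 22 bp from the gene's end. NFE2L1, the transcription factor that drives proteasome genes when the proteasome is inhibited, had a peak of 5.17 fold 566 bp from its end, shared with COPZ2. Of the 4 genes listed for proteasome gene regulation NFE2L1 was the only one with a peak (25%). Shuttle and VCP cofactor genes had gene-end peaks at 2 of 11 (18.2%), UFD1 (11.7, shared with CDC45) and FAF1 (4.68, shared with CDKN2C). UFD1 exceeded every PSM and UBE peak. In the cullin list 3 of 14 genes (21.4%) had a peak, with a gene-end peak at DDB1 (5.71, shared with TKFC). In the COP9 signalosome 2 of 10 (20%) had a peak, with a gene-end peak at COPS7A (8.86). Of the 16 genes of the anaphase-promoting complex 2 (12.5%) had a peak, and none had one at an end. Beside these shares stand 9.58% (wider measure) and 5.86% (gene end) of all protein-coding genes. The lists are short, and no difference was tested.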

How the data were processed

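The deposited file is a MACS2-style narrow peak list. Per the submitters' processing notes, the tools were Bowtie2, MACS2 and deepTools and the build hg38. Their versions were not given in the sources used here, nor were the settings. Per the labels, chromatin from cells fixed in 1% formaldehyde was cut with micrococcal nuclease (20 minutes), and 10 µg was precipitated. The authors' deposited values are a score, a fold enrichment (ratio to local background), the −log10 of p and q, and the summit offset. The fold and −log10 p were solved for a whole-number pileup and a background, with 1 added to each in the ratio. The solution returned the deposited −log10 p of 100% of the 1645 peaks within 0.001. Read depth was unknown, and pileups limit the precision.

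Genes and promoter windows came from RefSeq on GRCh38.p14, which is the same build; promoters give the strand for 78 of 91 genes. Peaks off chromosomes 1 to 22 and X were left out. Every member with a peak is named, by a rule written with the lists. A few genes that the symbols or lists select are not reported here and were left out of their counts. Members, lists and motifs were chosen with earlier results of these data known. Other windows, thresholds and motif lengths were tried. On simulated data, 300 of 300 pileups, 63 of 63 gene assignments and 200 of 200 motif matches were returned. Software was matplotlib 3.10.9, SciPy 1.17.1, numpy 2.4.6, pandas 2.3.3 and Python 3.11.15.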

Additional observations from a re-analysis of the deposited data

How the results depend on the processing

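No paired analysis was possible because there is 1 library per group. Of 43 settings, 30 left the value within 1.5 times (counts) or equal to 3 digits (fold medians) and 13 did not. PSM genes counted within 10 kb of a summit fell from 8 to 5 with the upper 50% of peaks by fold, and to 5 without peaks at the end of another protein-coding gene. UBE genes with a gene-end peak fell from 6 to 3 without shared peaks, which removed UBE2B, UBE2M and UBE3B. PSM genes with a gene-end peak fell from 7 to 5 in that setting, a change within 1.5 times, which removed PSMD13 and PSME4. The share of all protein-coding genes without shared peaks was not computed, so the counts without them cannot be set beside it. The upper 50% by fold keeps 5.49% of all protein-coding genes within 10 kb and 3.29% at ends, and removed PSMD2 and PSMD13 from the gene-end peaks. Upper 50% by significance removed the same 2 and UBE4A. The PSM median fold of 5.94 was 6.16 in both upper sets. The UBE median of 6.29 was 6.51 within 500 bp, by significance and without shared peaks, and 6.07 within 3 kb. The ETS counts follow from the length of the motif: 5, 9 and 10 of 10 promoters with a gene-end peak, and 6, 19 and 65 of 68 without, for 8, 6 and 4 letters. No member's peak was among those with a background over 2 times the median of the list (7.04 fragments). Of all 1564 peaks 206 (13.2%) were, and of the 953 other gene-end peaks 46 (4.83%).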

Other observations

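Motifs of other factors were searched in the same promoters. The letters TGACG, a short site of CREB and ATF factors, were in 8 of the 10 member promoters with a gene-end peak and in 24 of the 68 without (35.3%), beside 29.3% of all listed protein-coding promoters and 41.5% of those with a gene-end peak. CCAAT was in 2 of the 10 and 30 of the 68 (44.1%), beside 36.4% of all and 32.2% of those with a gene-end peak. GGGCGG was in all 10 and in 47 of the 68 (69.1%), beside 58.3% of all and 74.5% of those with a gene-end peak. TGANNNNGC, the core of the element bound by NFE2L1 and NFE2L2, was in 6 of the 10 and 39 of the 68 (57.4%), beside 42.7% of all and 45.6% of those with a gene-end peak. AGATAA, the GATA motif, was in none of the 10, in 1 of the 68 (PSMC6), in 7.63% of all and in 4.83% of those with a gene-end peak. GCATGCGC and AAGATGGCG were each in 1 of the 10, at UBE4A and UBE3B respectively, and in 3 (4.41%) and 4 (5.88%) of the 68. Their shares were 4.27% and 2.69% of all and 4.21% and 4.11% of those with a gene-end peak. CACGTG was in none of the 10 and in 6 of the 68 (8.82%), beside 8.82% of all and 10.7% of those with a gene-end peak.

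RefSeq also lists 130 pseudogenes and noncoding genes with PSM or UBE symbols, of which 5 (3.85%) had a summit in or within 10 kb. For 4 of them the peak was one already described at a coding member. The remaining one was UBE2V2P3, 4758 bp from a peak of 4.03 fold. The share over all pseudogenes and noncoding genes was not computed, so the 3.85% cannot be set beside it.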
